A study of Mus musculus with 6 samples.

Results

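The G1 cyclins and CDK inhibitors are a panel of 10 mouse genes named by symbol: the D-type cyclins Ccnd1, Ccnd2 and Ccnd3, the E-type cyclins Ccne1 and Ccne2, the Cip/Kip inhibitors Cdkn1a, Cdkn1b and Cdkn1c, and the INK4 inhibitors Cdkn2a and Cdkn2b. All 10 were among the 30055 symbols of the deposited table, and all 10 passed the filter on low counts that left 15035 genes. They were read across 6 RNA-seq libraries of cultured lung endothelial cells, taken at 3 weeks of age from Ch25h-null C57BL6 mice labelled female. The 3 groups, of 2 libraries each, were TEV plus reserpine, TEV and vehicle. TEV are extracellular vesicles of the MC38 mouse colorectal tumour line, applied at 20 µg per ml over 12 h. Reserpine, a blocker of vesicular monoamine transport, was applied at 10 µM during the 8 h before the vesicles. The wording of the series' design also allows that every group had reserpine; the sample labels, which name it for TEV plus reserpine only, were followed, and each comparison below rests on that reading. The cells of all 3 groups lack Ch25h, so no wild-type response is measured here, and no library of cells given reserpine alone was analysed here. Whether the libraries of a group came from separate cultures or mice is not stated, so p-values measure only the spread between these libraries, which may be technical.

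As background, a resting cell enters the cycle when growth signals raise D-type cyclins, which bind the kinases Cdk4 and Cdk6 and start to phosphorylate the retinoblastoma protein. This releases E2F transcription factors, which raise the E-type cyclins, and cyclin E with Cdk2 carries the cell into S phase. INK4 proteins block Cdk4 and Cdk6, and Cip/Kip proteins bind cyclin and kinase complexes, chiefly those of Cdk2. In endothelium the same genes set whether cells stay quiescent or divide, and INK4 genes rise in cells kept long in culture. Protein levels and cell cycle phase were not measured.

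Library depth ran from 22270657 to 81225627 estimated counts, and a count of 3 stood for 0.0369 to 0.135 CPM, the count relative to library size. Levels below are CPM scaled by TMM factors, computed from the estimated counts. A gene is called when its Benjamini-Hochberg adjusted p is under 0.05 in edgeR's quasi-likelihood test of all 6 libraries, and adjusted p-values in the text come from that test unless another tool is named. Log2 changes carry a 95% interval from that fit. The summed level of 10 endothelial markers was 8593 and 8597 CPM with TEV plus reserpine, 7668 and 7696 CPM with TEV, and 4509 and 4495 CPM with vehicle (scaled to library size alone), and none of the 10 was at 0 in any library. The members did not move together: in TEV against vehicle 6 were called higher (log2 change 2.84 for Emcn and 1.42 for Pecam1, among others) and 4 lower (Vwf -3.02, Cldn5 -2.93, Kdr -1.92 and Tek -0.31). In TEV plus reserpine against TEV, 6 were called higher, among them Cldn5 (log2 change 2.51) and Kdr (2.48), and 2 lower. The summed level of 8 fibroblast markers was 82.7 and 66.3 CPM with TEV plus reserpine, 46.2 and 55.2 CPM with TEV, and 3342 and 2911 CPM with vehicle. That of 8 mural cell markers was 202 and 187 CPM with TEV plus reserpine, 116 and 155 CPM with TEV, and 1219 and 1181 CPM with vehicle. The defining markers Tcf21 (fibroblasts) and Cspg4 (pericytes) were listed at 0 in all 4 libraries with vesicles. With vehicle, Cspg4 had 17.1 and 15.3 CPM. Tcf21 was low there too (17.2 and 12.1 estimated counts, 0.395 and 0.418 CPM), so its zeros say little. Of the tested markers, 7 of 7 for fibroblasts and 8 of 8 for mural cells were called lower in TEV against vehicle. In the reserpine comparison, 3 of 8 mural markers were called higher (Kcnj8 by 2.82, Notch3 by 2.16 and Myh11 by 0.94 on the log2 scale), as were 2 of 7 fibroblast markers (Dcn by 0.86 and Col3a1 by 0.75). Of all 15035 genes tested, 25.1% were called higher and 24.6% lower in TEV against vehicle. In TEV plus reserpine against TEV, 15.7% were called higher and 16.0% lower, so 3 of 8 and 2 of 7 rest on few genes. Notch3 had 21.6 and 20.6 CPM with TEV plus reserpine, 3.28 and 6.0 CPM with TEV, and 24.2 and 22.9 CPM with vehicle. Marker levels thus moved with all 3 comparisons, and their part in the results on the panel was not tested. In bulk RNA, fewer cells of a type and less RNA per cell cannot be told apart. The summed level of 8 colon tumour markers was 60.1 and 54.6 CPM with TEV plus reserpine. It was 56.6 and 61.0 CPM with TEV, and 20.2 and 19.0 CPM with vehicle. Of 6 tested, 2 were called higher in TEV against vehicle (Krt18 and Krt19) and 2 lower (Krt8 and Lgals4). Vesicles and cells are both of mouse, so RNA of the vesicles and RNA of the cells were not told apart.

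**Figure D1:**
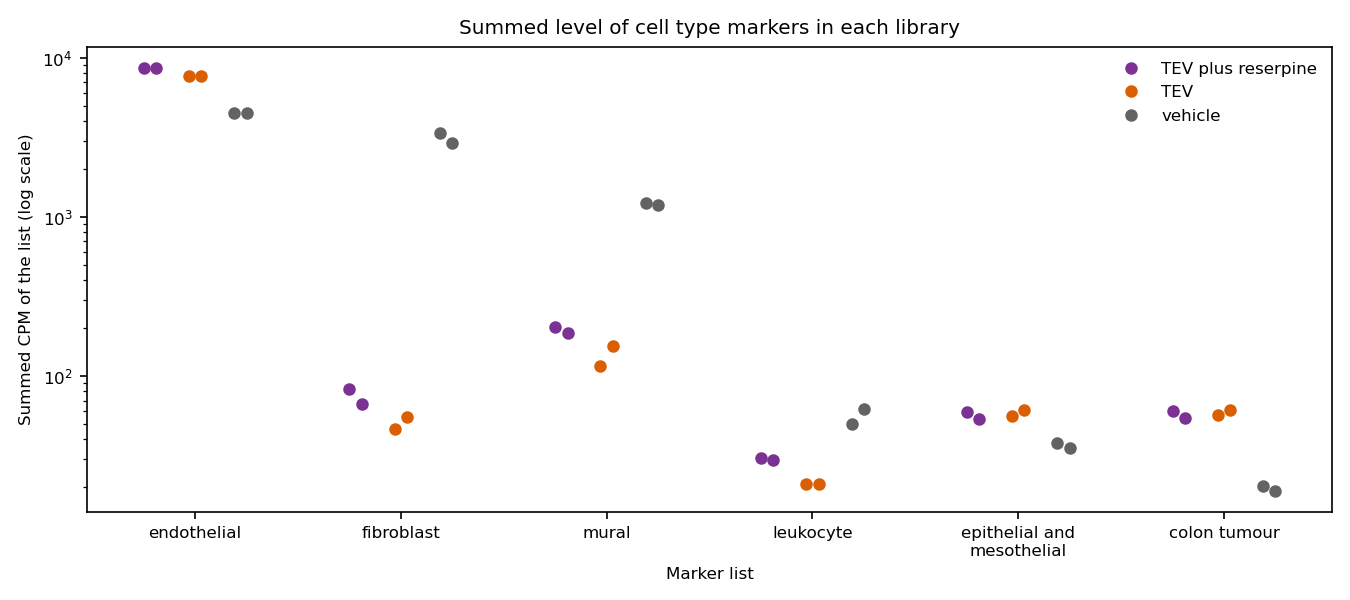
Summed CPM of 6 marker lists (x axis) in each library, on a log y axis; each point is a library, coloured by group. The fibroblast sums of the 4 vesicle libraries lie between 46.2 and 82.7 CPM, below both vehicle libraries (3342 and 2911 CPM).

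In TEV against vehicle, which asks what the vesicles change, both E-type cyclins rose, Ccnd2 fell, and the inhibitors split. Of the 10 genes, 4 were called higher (Ccne1, Ccne2, Cdkn1b and Cdkn2b) and 2 lower (Ccnd2 and Cdkn2a). Of all 15035 genes, 25.1% were called higher and 24.6% lower, 49.7% in either direction, so that 6 of 10 is near the background. In the reserpine comparison, TEV plus reserpine against TEV, which asks what prior reserpine changes, 3 were called higher (Ccnd1, Ccnd2 and Ccne2) and 2 lower (Cdkn1b and Cdkn1c), where the background was 15.7% higher, 16.0% lower and 31.6% in either direction. In TEV plus reserpine against vehicle, 4 were called higher (Ccnd1, Ccne1, Ccne2 and Cdkn2b) and none of the 10 lower, where the background was 19.1% higher, 19.9% lower and 39.1% in either direction. At an unadjusted edgeR p under 0.05, Ccnd3, Cdkn1c and Cdkn2a were lower there. The share of all genes at that threshold was not computed, so no count is read from it. Cdkn2a was called lower there in 6 of 14 alternative settings, DESeq2 among them. The second count was 3 without TEV replicate 1, where 13.7% of all genes were called, 3 without replicate 1 of TEV plus reserpine (16.4% of all) and 2 without its replicate 2 (16.3% of all). The third was 2 without vehicle replicate 2 (25.2% of all). Without overlap between the libraries of the groups were 6 of the 10 genes in TEV against vehicle (78.9% of all genes tested), 7 in the reserpine comparison (70.7% of all) and 8 in the comparison of TEV plus reserpine with vehicle (73.5% of all), so the counts were below or near the background. The comparisons share libraries, so the counts are not independent of each other. With library size as the only scaling, the median log2 change over all genes in TEV against vehicle was -0.11, against 0.01 with TMM factors. It moved the higher share of all called genes to 39.8%, against 50.5%, in that comparison and to 59.4%, against 49.5%, in the reserpine comparison.

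**Figure D2:**
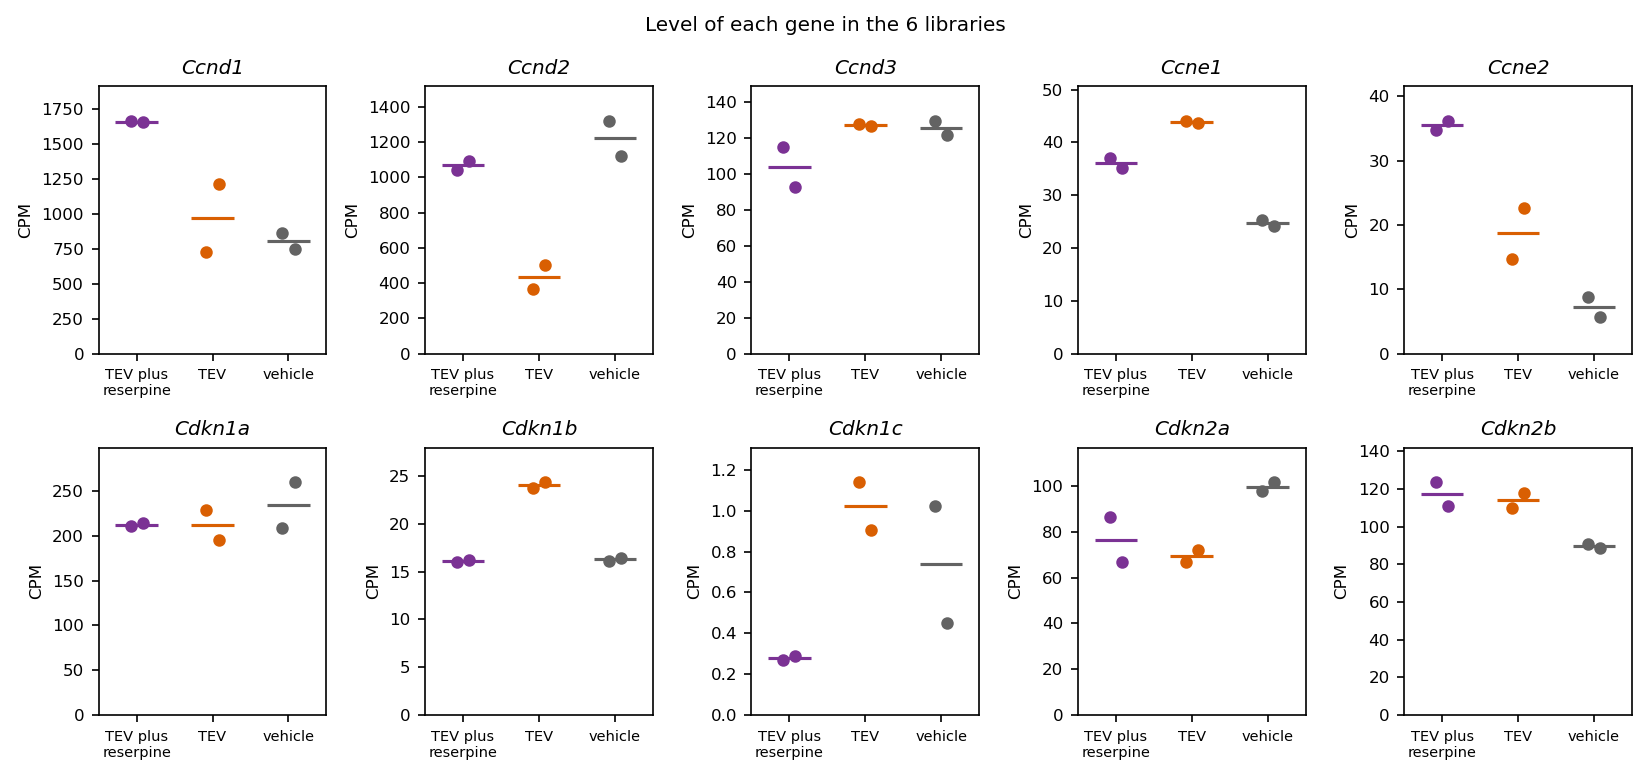
CPM of each of the 10 genes (y axis, linear from 0) in TEV plus reserpine, TEV and vehicle; each point is a library and the line is the mean of 2 libraries. Ccnd2 is lowest with TEV (366 and 504 CPM), and Cdkn1b is highest there (23.7 and 24.3 CPM).

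The D-type cyclins did not move together. Ccnd2, whose product is the cyclin D2 partner of Cdk4 and Cdk6, had 1043 and 1094 CPM with TEV plus reserpine, 366 and 504 CPM with TEV, and 1321 and 1122 CPM with vehicle. Both TEV libraries lay far below the other 4. Ccnd2 fell with TEV to 435 ± 97.5 CPM, against 1221 ± 141 CPM with vehicle (SD, n = 2 each), a 2.80-fold lower level (log2 change -1.49, SE 0.16, interval -1.87 to -1.11, edgeR adjusted p = 0.000442). With reserpine before the vesicles it was 2.45-fold higher than with TEV (log2 change 1.30, SE 0.16, interval 0.92 to 1.67, edgeR adjusted p = 0.00233). Between TEV plus reserpine and vehicle the difference was not called (log2 change -0.19, interval -0.56 to 0.18, edgeR adjusted p = 0.364), although both libraries with reserpine lay below both of vehicle. The calls of Ccnd2 in the first 2 comparisons held in all 14 alternative settings. Some of the markers above were also called lower in TEV against vehicle and higher in the reserpine comparison. They were Kdr, Cldn5 and Tek (endothelial), Notch3, Kcnj8 and Myh11 (mural), and Dcn and Col3a1 (fibroblast). Emcn (log2 change 2.84, then -0.45) and Erg (1.26, then -0.70) were called the other way in both. Cdh5, Tie1 and Esam were called higher in both. Pecam1 (higher) and Vwf (lower) were called in TEV against vehicle only. The remaining fibroblast and mural markers tested, among them Col1a1, Pdgfra, Pdgfrb and Acta2, were called lower in TEV against vehicle only. A link of Ccnd2 to the markers was not tested.

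Ccnd1 encodes cyclin D1, the D-type cyclin best known for responding to growth factors. It had 1666 and 1655 CPM with TEV plus reserpine, 726 and 1217 CPM with TEV, and 864 and 751 CPM with vehicle. The TEV libraries stood apart from each other, one below and one above both vehicle libraries, while the pair with reserpine was higher than the other 4. TEV against vehicle was not called (log2 change 0.27, interval -0.25 to 0.79, edgeR adjusted p = 0.344). That value was 0.61 and called without TEV replicate 1 (edgeR adjusted p = 0.00641), and -0.15 and not called without TEV replicate 2 (0.288). With TEV plus reserpine, Ccnd1 rose 1.71-fold over TEV (log2 change 0.77, SE 0.22, interval 0.25 to 1.30, edgeR adjusted p = 0.0373) and 2.06-fold over vehicle (log2 change 1.04, SE 0.22, interval 0.51 to 1.57, edgeR adjusted p = 0.0107). The change over TEV was 0.44 without TEV replicate 1 and 1.21 without TEV replicate 2, and its call ended when either library with reserpine was left out (edgeR adjusted p = 0.125 without replicate 1, 0.116 without replicate 2). The call over vehicle ended without vehicle replicate 2 (edgeR adjusted p = 0.0558).

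Ccnd3, the third D-type cyclin gene, varied least of the 3. It had 115 and 92.5 CPM with TEV plus reserpine, 128 and 127 CPM with TEV, and 129.6 and 122 CPM with vehicle. The libraries with TEV and with vehicle overlapped, and both libraries with reserpine lay below them. No comparison was called: the log2 change was 0.02 in TEV against vehicle (interval -0.25 to 0.29, edgeR adjusted p = 0.914), -0.29 in TEV plus reserpine against TEV (interval -0.56 to -0.02, edgeR adjusted p = 0.0902), and -0.28 in TEV plus reserpine against vehicle (interval -0.55 to -0.01, edgeR adjusted p = 0.0962). Without replicate 1 of TEV plus reserpine, both comparisons with reserpine were called (edgeR adjusted p = 0.0354 and 0.0281).

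The makeup of the D-type cyclin reads, which needs no scaling between libraries, differed between groups. Ccnd1 took 59.0% and 58.2% of these reads with TEV plus reserpine, 59.5% and 65.9% with TEV, and 37.3% and 37.6% with vehicle, where the widest 95% Clopper-Pearson interval ran from 59.0% to 60.0% (TEV replicate 1) and covers counting error only. Ccnd2 took 36.9% and 38.5% with TEV plus reserpine, 30.0% and 27.3% with TEV, and 57.1% and 56.3% with vehicle. In all 4 vesicle libraries most of the D-type cyclin reads were thus from Ccnd1, and in both vehicle libraries most were from Ccnd2. Ccnd1 reads numbered 1.60 and 1.51 per Ccnd2 read with TEV plus reserpine, 1.98 and 2.41 with TEV, and 0.654 and 0.669 with vehicle. A longer transcript gives more reads, so these shares compare libraries and not the 2 genes. No test was run on the shares.

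**Figure D3:**
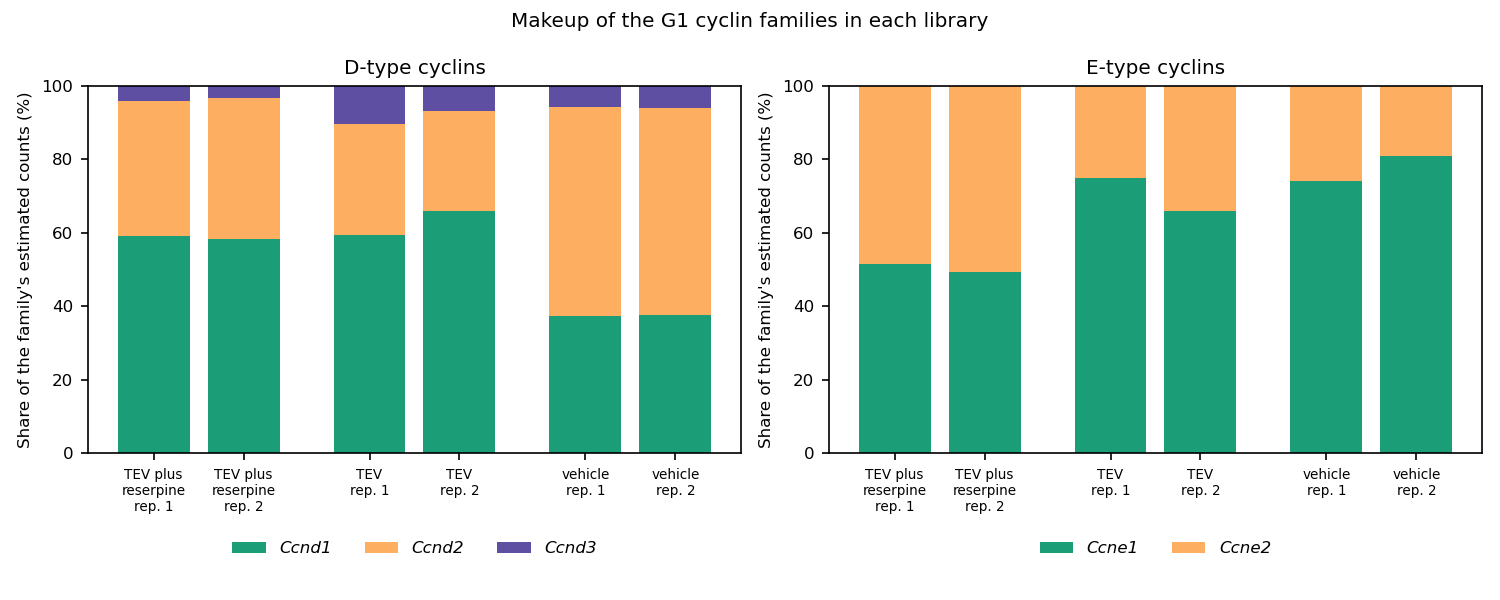
Share of the estimated counts of the D-type cyclins (left) and the E-type cyclins (right) taken by each gene, in percent; each bar is a library. Ccnd1 takes 58.2% to 65.9% of D-type reads in the vesicle libraries and 37.3% to 37.6% in vehicle; Ccne2 takes 48.4% and 50.7% of E-type reads with TEV plus reserpine.

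Both E-type cyclins rose with the vesicles, and in TEV plus reserpine against TEV only Ccne2 was called, as higher. Ccne1, cyclin E1, the activator of Cdk2 at the entry to S phase, had 37.1 and 35.2 CPM with TEV plus reserpine, 44.1 and 43.7 CPM with TEV, and 25.3 and 24.2 CPM with vehicle. The 3 groups did not overlap. Ccne1 rose 1.77-fold in TEV against vehicle (log2 change 0.82, SE 0.09, interval 0.61 to 1.04, edgeR adjusted p = 0.000507) and 1.46-fold in TEV plus reserpine against vehicle (log2 change 0.54, SE 0.09, interval 0.32 to 0.76, edgeR adjusted p = 0.00434), and both calls held in all 14 alternative settings. TEV plus reserpine against TEV was not called (log2 change -0.28, interval -0.50 to -0.07, edgeR adjusted p = 0.0542). It was called, also lower, by DESeq2 (adjusted p = 0.0470) and by edgeR over genes above 1 CPM in 2 libraries (0.0452).

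Ccne2, cyclin E2, had 34.8 and 36.2 CPM with TEV plus reserpine, 14.7 and 22.6 CPM with TEV, and 8.80 and 5.68 CPM with vehicle. Again the groups did not overlap, and here the libraries with reserpine were the highest. Ccne2 rose 2.57-fold in TEV against vehicle (log2 change 1.36, SE 0.26, interval 0.73 to 1.99, edgeR adjusted p = 0.00537) and 4.86-fold in TEV plus reserpine against vehicle (log2 change 2.28, SE 0.27, interval 1.64 to 2.92, edgeR adjusted p = 0.00102). Both calls held in all 14 settings. It also rose 1.89-fold in TEV plus reserpine against TEV (log2 change 0.92, SE 0.25, interval 0.32 to 1.52, edgeR adjusted p = 0.0337). That last call ended without TEV replicate 1 (log2 change 0.64, edgeR adjusted p = 0.144) and when a library with reserpine was left out (0.106 without replicate 1, 0.121 without replicate 2). Of the reads of both genes, Ccne2 took 48.4% and 50.7% with TEV plus reserpine, 25.1% and 34.1% with TEV, and 25.8% and 19.0% with vehicle. The TEV and vehicle shares overlapped, and both shares with reserpine were higher than the other 4. In the reserpine comparison the intervals of the log2 changes of Ccne1 and Ccne2 did not overlap, and the difference between the 2 genes was not tested further.

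**Figure D4:**
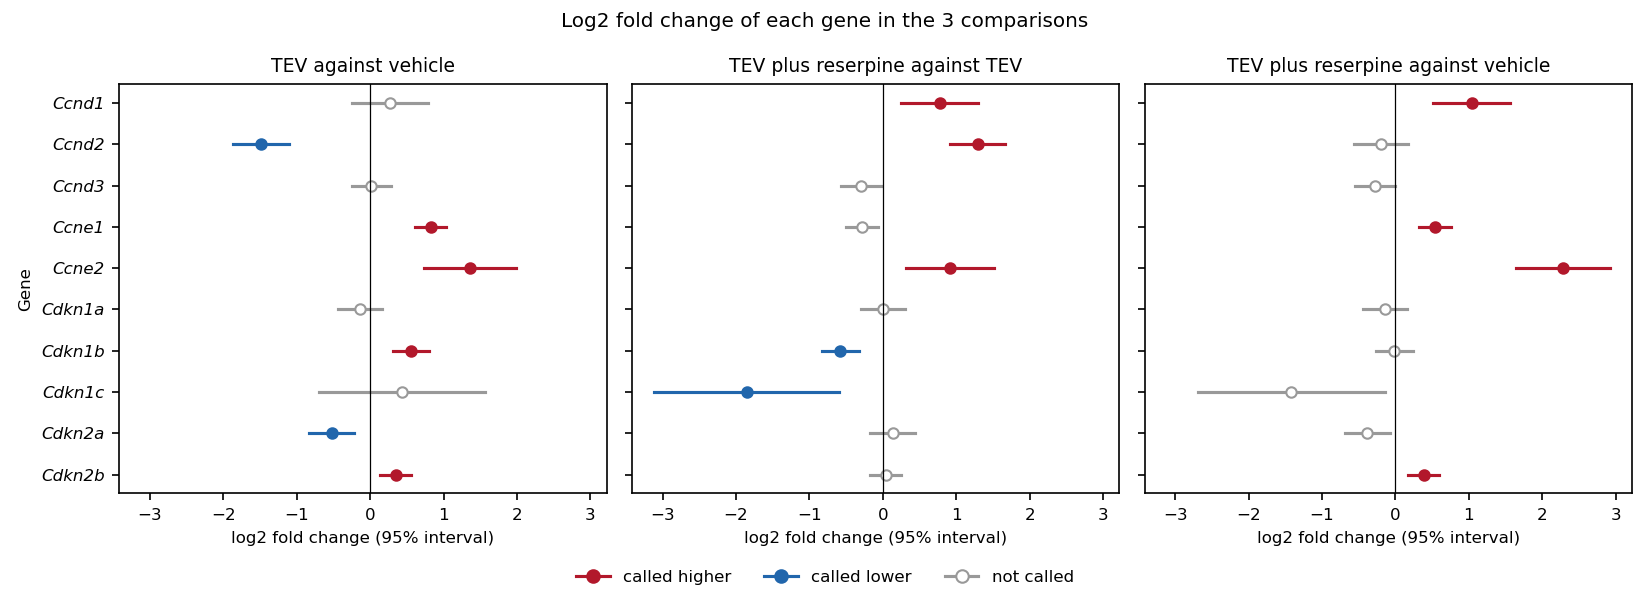
Log2 fold change of each gene (points) with its 95% interval (lines) in 3 panels, one for each comparison; filled points are called higher (red) or lower (blue) and open points are not called. Ccne1 and Ccne2 are called higher in both comparisons against vehicle, and Ccnd2 is called in the first 2 comparisons with opposite signs.

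Among the Cip/Kip inhibitors, Cdkn1b changed in both comparisons that involve TEV alone, and Cdkn1a was called in none. Cdkn1b encodes p27, the inhibitor that holds cyclin E and Cdk2 in resting cells and is controlled largely by protein breakdown. It had 15.9 and 16.2 CPM with TEV plus reserpine, 23.7 and 24.3 CPM with TEV, and 16.1 and 16.4 CPM with vehicle. Both TEV libraries lay above the other 4, and libraries of the other 2 groups overlapped. Cdkn1b rose 1.47-fold in TEV against vehicle (log2 change 0.56, SE 0.10, interval 0.31 to 0.81, edgeR adjusted p = 0.00451) and was 1.49-fold lower in TEV plus reserpine against TEV (log2 change -0.58, SE 0.10, interval -0.83 to -0.33, edgeR adjusted p = 0.00889). Both calls held in all 14 alternative settings. Between TEV plus reserpine and vehicle the log2 change was -0.02 with an interval of -0.27 to 0.23 (edgeR adjusted p = 0.909). In the same libraries with TEV alone, Ccne1, the partner this inhibitor acts on, was also at its highest.

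Cdkn1a encodes p21, the inhibitor best known as a target of p53. It had 211 and 214 CPM with TEV plus reserpine, 229 and 195 CPM with TEV, and 209 and 259.5 CPM with vehicle. The groups overlapped in TEV against vehicle and in both comparisons with reserpine. Its log2 change was -0.14 in TEV against vehicle (interval -0.44 to 0.16, edgeR adjusted p = 0.384), 0.00 in TEV plus reserpine against TEV (interval -0.30 to 0.30, edgeR adjusted p = 0.994) and -0.14 in TEV plus reserpine against vehicle (interval -0.44 to 0.16, edgeR adjusted p = 0.418). The intervals thus leave room for a change of up to 0.44 on the log2 scale. For comparison, Ccnd1 reads numbered 7.90 and 7.74 per Cdkn1a read with TEV plus reserpine, 3.17 and 6.24 with TEV, and 4.14 and 2.89 with vehicle, so that the pair with reserpine was above the other 4.

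Cdkn1c encodes p57, the imprinted member of the family, known for its role in cells that leave the cycle during development. Its counts were low, with 5.86 and 10.5 estimated counts (0.268 and 0.287 CPM) with TEV plus reserpine, 40.5 and 71.2 (1.14 and 0.904 CPM) with TEV, and 43.9 and 13.1 (1.02 and 0.453 CPM) with vehicle. Both libraries with reserpine were lower than the other 4, and the vehicle libraries differed by more than the TEV libraries. Cdkn1c was called 3.62-fold lower in TEV plus reserpine against TEV (log2 change -1.86, SE 0.53, interval -3.12 to -0.60, edgeR adjusted p = 0.0375). That call ended with DESeq2 (adjusted p = 0.0565) and when any library of either group was left out (edgeR adjusted p = 0.151 without TEV replicate 1, 0.0766 without TEV replicate 2, and 0.135 without either library with reserpine). The other 2 comparisons were not called, with log2 changes of 0.44 in TEV against vehicle (interval -0.69 to 1.57) and -1.42 in TEV plus reserpine against vehicle (interval -2.69 to -0.14, edgeR adjusted p = 0.0777).

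The INK4 inhibitors Cdkn2a and Cdkn2b, neighbours on chromosome 4 and read from the same strand, moved in opposite directions with the vesicles. Cdkn2a makes p16Ink4a and, from a start further upstream and in another reading frame, p19Arf, which stabilises p53; the table has 1 value for the symbol, so the transcripts of these products are not told apart here. Cdkn2b makes p15Ink4b, known to respond to TGF-beta in epithelial cells. Promoter windows (250 bases before to 50 after a start) were taken from a RefSeq table on GRCm38.p6. They are shown for both genes because these neighbours moved apart in level, and for Ccne1 because it rose in both comparisons against vehicle. Of the 10 genes, 6 had an entry in that table, with 9 windows in all, and Ccnd1, Ccnd2, Ccne2 and Cdkn1c had none. Capitals mark matches on either strand to an E2F motif (TTTCCCGC, TTTCGCGC, TTTGCCGC or TTTGGCGC), the cAMP response element TGACGTCA or the SP1 core GGGCGG, which do not overlap in these windows.
Cdkn2b, chr4:89310983-89311282, minus strand: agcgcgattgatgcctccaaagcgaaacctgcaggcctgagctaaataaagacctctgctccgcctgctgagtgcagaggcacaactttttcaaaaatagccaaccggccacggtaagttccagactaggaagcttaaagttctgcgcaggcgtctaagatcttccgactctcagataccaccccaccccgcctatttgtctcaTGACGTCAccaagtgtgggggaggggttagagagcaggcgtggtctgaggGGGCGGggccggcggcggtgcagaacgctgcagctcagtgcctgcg
Cdkn2a, upstream start, chr4:89294570-89294869, minus strand: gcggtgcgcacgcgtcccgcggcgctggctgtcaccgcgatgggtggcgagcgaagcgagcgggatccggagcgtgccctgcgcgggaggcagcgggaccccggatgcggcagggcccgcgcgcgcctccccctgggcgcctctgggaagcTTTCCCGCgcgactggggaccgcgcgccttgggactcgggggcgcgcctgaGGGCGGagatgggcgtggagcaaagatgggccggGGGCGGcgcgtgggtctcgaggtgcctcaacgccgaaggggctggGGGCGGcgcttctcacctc
Cdkn2a, downstream start, chr4:89282143-89282442, minus strand: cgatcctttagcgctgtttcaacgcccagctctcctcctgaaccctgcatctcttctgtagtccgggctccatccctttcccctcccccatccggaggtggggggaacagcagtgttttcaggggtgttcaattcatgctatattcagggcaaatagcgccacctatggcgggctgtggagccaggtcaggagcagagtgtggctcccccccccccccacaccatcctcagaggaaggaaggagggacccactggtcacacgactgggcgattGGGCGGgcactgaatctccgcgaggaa
Ccne1, chr7:38107441-38107740, minus strand: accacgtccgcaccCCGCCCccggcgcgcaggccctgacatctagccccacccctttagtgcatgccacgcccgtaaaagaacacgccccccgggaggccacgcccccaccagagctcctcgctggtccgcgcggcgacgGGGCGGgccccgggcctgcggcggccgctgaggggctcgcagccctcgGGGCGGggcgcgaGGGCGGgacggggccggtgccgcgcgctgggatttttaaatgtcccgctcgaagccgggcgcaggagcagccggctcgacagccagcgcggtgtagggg
The upstream Cdkn2a window holds 1 E2F match, whose first base lies at -99 from the start, and 3 SP1 matches, whereas the downstream window holds 1 SP1 match and no E2F match. The Cdkn2b window holds 1 cAMP response element with its first base at -46 and 1 SP1 match. The Ccne1 window holds 4 SP1 matches and none of the 4 E2F words. Of 32851 promoter windows of the same length, 2.26% held an E2F match, 1.79% the cAMP response element and 35.7% the SP1 core. A match describes letters and not binding.

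Cdkn2a had 86.3 and 66.7 CPM with TEV plus reserpine, 66.8 and 72.0 CPM with TEV, and 97.8 and 102 CPM with vehicle. All 4 vesicle libraries lay below both vehicle libraries, and the 2 vesicle groups overlapped. Cdkn2a was 1.44-fold lower in TEV against vehicle (log2 change -0.52, SE 0.13, interval -0.83 to -0.21, edgeR adjusted p = 0.0143), a call that ended without vehicle replicate 2 (0.0643) or TEV replicate 1 (0.0793). In TEV plus reserpine against TEV the log2 change was 0.14 (interval -0.17 to 0.44, edgeR adjusted p = 0.45). In TEV plus reserpine against vehicle it was -0.38 and not called (interval -0.69 to -0.08, edgeR adjusted p = 0.0540). Cdkn2a was called lower there in 6 of the 14 alternative settings, among them DESeq2 (adjusted p = 0.0217) and limma-voom (0.0424). The others were edgeR with library size alone (adjusted p = 0.0394), with no filter on low counts (0.0215), over genes above 1 CPM in 2 libraries (0.0455) and without replicate 1 of TEV plus reserpine. As given above, fibroblast and mural markers were also lower in all 4 vesicle libraries, and their part in the level of Cdkn2a was not tested.

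Cdkn2b had 123 and 111 CPM with TEV plus reserpine, 110.0 and 118 CPM with TEV, and 90.9 and 88.6 CPM with vehicle. All 4 vesicle libraries lay above both vehicle libraries. It was called 1.27-fold higher in TEV against vehicle (log2 change 0.35, SE 0.09, interval 0.14 to 0.55, edgeR adjusted p = 0.0159) and 1.30-fold higher in TEV plus reserpine against vehicle (log2 change 0.38, SE 0.09, interval 0.17 to 0.59, edgeR adjusted p = 0.0145). The first call ended with scaling by library size alone (log2 change 0.22, edgeR adjusted p = 0.0821) and without vehicle replicate 1 (0.0704), vehicle replicate 2 (0.0938) or TEV replicate 2 (0.0667). The second ended without vehicle replicate 1 (edgeR adjusted p = 0.0704) or 2 (0.0862) or the first library with reserpine (0.0711). TEV plus reserpine against TEV gave a log2 change of 0.04 (interval -0.17 to 0.25, edgeR adjusted p = 0.770). Cdkn2b reads numbered 1.43 and 1.66 per Cdkn2a read with TEV plus reserpine, 1.65 and 1.64 with TEV, and 0.929 and 0.872 with vehicle, a ratio that does not depend on scaling between libraries and that was above 1 in all 4 vesicle libraries.

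Levels of different genes can be set against each other only per length, and the transcripts behind each value are not given in the sources used here. Dividing by the longest protein-coding transcript of GENCODE vM21, Ccnd1 stood at 444 CPM per kb with TEV plus reserpine, 260 with TEV and 216 with vehicle, and Ccnd2 at 169, 68.8 and 193 CPM per kb. Dividing by the median transcript length instead put Ccnd2 at 1075, 438 and 1228 CPM per kb in the same 3 groups, so the order of these 2 genes cannot be told from the table. By the longest transcript, Cdkn1a had 102 CPM per kb in either vesicle group and 113 with vehicle. Ccne1 had 18.1, 21.9 and 12.4 CPM per kb with TEV plus reserpine, TEV and vehicle, and Cdkn1b had 3.53, 5.27 and 3.58. By either length, Cdkn1c was the lowest of the 10 in every group, under 1 CPM per kb.

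The genes that the panel acts through were read from lists chosen for the G1 pathway. Of the 3 G1 kinase genes, 2 were called higher and 1 lower in TEV against vehicle, where 49.7% of all genes were called in either direction. Cdk2, the partner of the E-type cyclins, had 47.6 and 48.8 CPM with TEV plus reserpine, 49.2 and 52.9 CPM with TEV, and 26.4 and 24.8 CPM with vehicle. It rose by 1.00 on the log2 scale in TEV against vehicle (edgeR adjusted p = 0.000241) and by 0.91 in TEV plus reserpine against vehicle (0.000520). Cdk6, a partner of the D-type cyclins, had 83.9 and 97.1 CPM with TEV plus reserpine, 58.1 and 63.2 CPM with TEV, and 95.9 and 106 CPM with vehicle. Like Ccnd2, it was lowest in both TEV libraries: it fell by 0.73 on the log2 scale in TEV against vehicle (edgeR adjusted p = 0.00160) and was higher by 0.58 in TEV plus reserpine against TEV (0.00929), the last call ending without TEV replicate 1 (0.0548). Cdk4, the other partner, rose by 0.34 on the log2 scale in TEV against vehicle (edgeR adjusted p = 0.0184), and by 0.49 when TEV plus reserpine was set against vehicle (0.00585). The first of these calls ended with library size as the only scaling (log2 change 0.21, edgeR adjusted p = 0.103) and without vehicle replicate 1 (0.0813), vehicle replicate 2 (0.0871) or TEV replicate 2 (0.0748).

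Of the 3 pocket protein genes, whose products bind E2F factors, 1 was called lower in TEV against vehicle (Rb1). In TEV plus reserpine against TEV, 2 were called higher (Rb1 and Rbl1), and in TEV plus reserpine against vehicle 1 was (Rbl1). Rbl1 was higher by 0.70 on the log2 scale in the reserpine comparison (edgeR adjusted p = 0.0346). Each of its 2 calls ended in 3 of the 14 settings. Rb1, the retinoblastoma gene, had 40.2 and 44.0 CPM with TEV plus reserpine, 22.3 and 24.2 CPM with TEV, and 41.7 and 38.5 CPM with vehicle. Both TEV libraries were lower than the other 4. Rb1 fell by 0.78 on the log2 scale in TEV against vehicle (edgeR adjusted p = 0.00105) and was higher by 0.86 in TEV plus reserpine against TEV (0.00227), and both calls held in all 14 settings. Of the 10 E2F and DP genes, 5 were called higher and 1 lower in TEV against vehicle, 3 higher and 1 lower in TEV plus reserpine against TEV, and 4 higher in TEV plus reserpine against vehicle. The shares of all genes called in either direction were 49.7%, 31.6% and 39.1%. Of the 5 called higher with TEV, E2f7 kept its call in all 14 settings, and E2f1 (5 settings), E2f8 (3), Tfdp1 (3) and Tfdp2 (2) lost theirs in some. The 3 called higher with reserpine before TEV lost theirs in some settings too (E2f3 in 6, E2f8 in 5 and E2f5 in 3). E2f7, a repressor of the family, had 28.1 and 32.3 CPM with TEV plus reserpine, 37.6 and 34.2 CPM with TEV, and 10.5 and 10.8 CPM with vehicle. It rose by 1.75 on the log2 scale in TEV against vehicle (edgeR adjusted p = 7.24e-05). E2f5, which acts with the pocket proteins, fell by 0.82 in TEV against vehicle (edgeR adjusted p = 0.00639). Tfdp2, a DP partner of E2F factors, was lower by 1.65 in TEV plus reserpine against TEV (edgeR adjusted p = 0.00755).

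The INK4 genes outside the panel were Cdkn2c and Cdkn2d. Cdkn2c, which makes p18Ink4c, had 11.3 and 11.6 CPM with TEV plus reserpine, 7.39 and 8.40 CPM with TEV, and 4.18 and 5.29 CPM with vehicle. The 3 groups did not overlap, in the same order as for Ccne2. It was higher by 1.28 on the log2 scale in TEV plus reserpine against vehicle (edgeR adjusted p = 0.00214) and by 0.74 in TEV against vehicle (0.0128), the second call ending without vehicle replicate 1 (0.0772) or TEV replicate 2 (0.0560). Cdkn2d, which makes p19Ink4d, had 5.94 and 3.76 CPM with TEV plus reserpine, 8.75 and 4.66 CPM with TEV, and 3.53 CPM in 1 vehicle library while it was listed at 0 in the other, so no change is given.

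Downstream, the cyclins of later phases rose in all 3 comparisons, with 4 of 4 tested called higher in each (Ccna1 was not tested). The share of all genes called higher was 25.1% in TEV against vehicle and 15.7% in TEV plus reserpine against TEV. It was 19.1% in TEV plus reserpine against vehicle. The call of Ccnf, cyclin F, in the reserpine comparison ended when either library with reserpine was left out (edgeR adjusted p = 0.0809 without replicate 1, 0.0522 without replicate 2). Ccna2, cyclin A2, had 75.0 and 77.5 CPM with TEV plus reserpine, 30.5 and 41.8 CPM with TEV, and 22.1 and 17.1 CPM with vehicle. Ccnb2, cyclin B2, had 46.1 and 45.6 CPM with TEV plus reserpine, 26.8 and 31.3 CPM with TEV, and 10.4 and 9.68 CPM with vehicle. In both genes the groups did not overlap and the libraries with reserpine were highest, as for Ccne2. The median log2 change of these 4 cyclins was 0.93 in TEV against vehicle, where the median of all genes was 0.01, 0.95 in TEV plus reserpine against TEV, where it was 0.00, and 2.04 in TEV plus reserpine against vehicle, where it was -0.02. Of 19 genes listed for S phase and proliferation, 19 were called higher in TEV against vehicle, with a median of 1.19. In TEV plus reserpine against TEV, 4 were (Rrm2, Tyms, Cdk1 and Mki67), with a median of 0.17. Cdk1 and Mki67 are not particular to S phase. Of all genes, 25.1% and 15.7% were called higher in these 2 comparisons, so 4 of 19 is near the background. Of 7 tested genes for the turnover of cyclins and inhibitors, 4 were called higher and 1 lower in TEV against vehicle; Cks2, a subunit that binds Cdk proteins, was higher by 0.99 on the log2 scale. Of 6 genes that activate or restrain the kinases, 2 were called higher and 1 lower in that comparison, and 3 were called higher in TEV plus reserpine against TEV. These shares of the turnover and kinase lists stand beside 49.7% of all genes called in the first comparison and 31.6% in the second.

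Of 18 p53 targets other than Cdkn1a, 4 were called higher and 4 lower in TEV against vehicle (median 0.12), 5 higher and 2 lower in TEV plus reserpine against TEV (median 0.24), and 6 higher and none of the 18 lower in TEV plus reserpine against vehicle (median 0.17). The background given above was 25.1% higher and 24.6% lower in the first of these. It was 15.7% higher and 16.0% lower in the second, and 19.1% higher and 19.9% lower in the third. Gadd45a, a stress gene whose product binds p21, had 84.9 and 78.6 CPM with TEV plus reserpine, 19.6 and 25.1 CPM with TEV, and 81.6 and 82.4 CPM with vehicle. Both TEV libraries lay below the other 4, with a log2 change of -1.87 in TEV against vehicle (edgeR adjusted p = 7.62e-05) and 1.86 in TEV plus reserpine against TEV (0.000492). Eda2r, of the same list, was called the other way in both. Its log2 change was 0.92 in the first (edgeR adjusted p = 0.00261) and -0.67 in the second (0.0172). Of 13 genes for transcription factors and chromatin proteins known to act on the panel, 3 were called higher and 6 lower in TEV against vehicle, and 5 higher and 3 lower in TEV plus reserpine against TEV, beside 49.7% and 31.6% of all genes called in either direction.

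**Figure D5:**
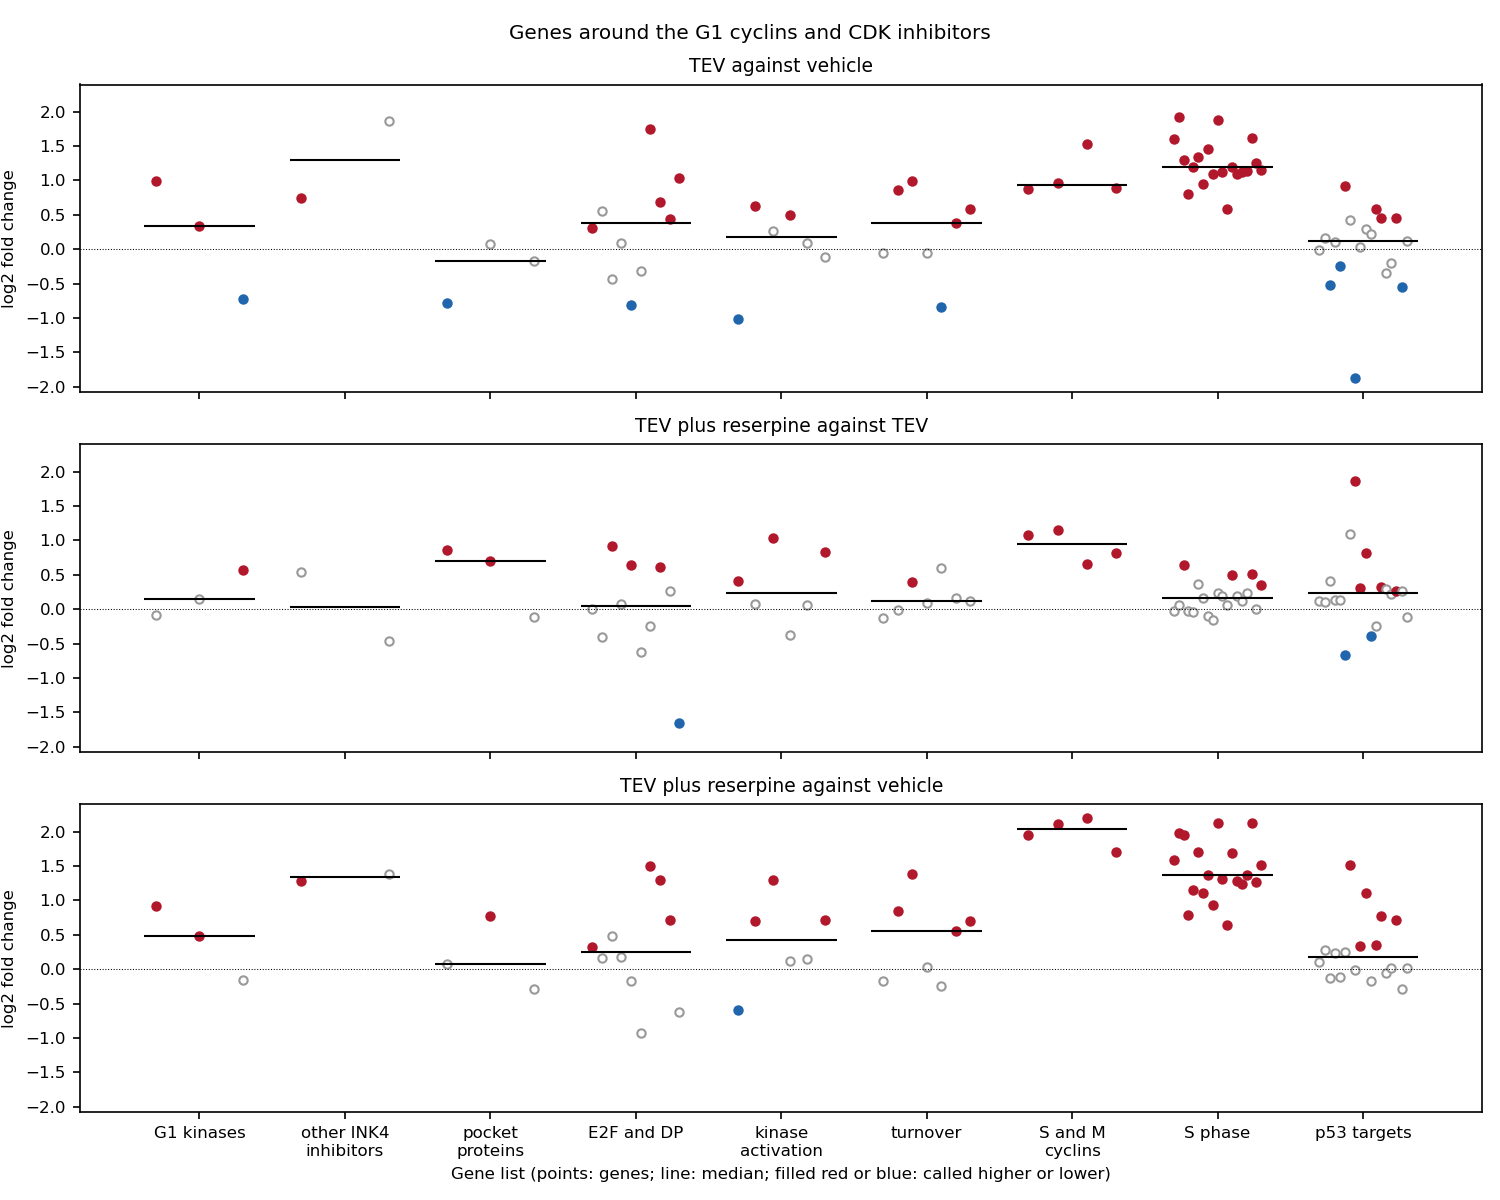
Log2 fold change (y axis) of the genes of 9 lists around the panel (x axis) in the 3 comparisons; each point is a gene, red or blue where called higher or lower and open where not called, and the line is the list's median. The 4 tested cyclins of later phases lie above 0 in all 3 panels. The 19 genes of the S phase list, which also holds Cdk1 and Mki67, lie above 0 in both comparisons against vehicle.

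The genes whose pattern was most like each panel gene were taken by the smallest root mean square difference of log2 CPM, each gene centred on its own mean over the 6 libraries, among about 10430 genes whose mean level was 5 CPM or more. For Ccnd2 the nearest was Hmga2 (0.0858), followed by Kdelc2 (0.0861). For Ccnd1 it was Ablim1 (0.0675), for Ccne1 Rcan3 (0.0340), and for Ccne2 Sgol2 (0.116). For Cdkn1b it was Hars2 (0.0292) and for Cdkn2b Dnajc11 (0.0247). For Cdkn2a it was Gpsm1 (0.0438), for Cdkn1a Rel (0.0461), and for Ccnd3 Mvd (0.0375). For Cdkn1c the nearest was Prkd1 at 0.246. No panel gene was among the 3 nearest of another. With 6 libraries in 3 groups, many genes share any such pattern, and the measure ranks likeness only.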

How the data were processed

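The tools named, per the submitters' processing notes, are kallisto 0.45.0, R 4.0.0, edgeR and limma; the build named there is GRCh38, a human one, although all symbols are mouse symbols. The labels' protocols give TruSeq mRNA libraries and single-end reads of 75 bp. Whether counting used strand is not stated, so reads of antisense or overlapping genes are not told apart, and reads shared by related genes are split by kallisto's estimate. The authors deposited estimated counts per symbol in 2 tables, raw and filtered; the 13098 genes of the filtered table hold the same values as the raw one, which was used here.

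Counts were rounded, kept for the 15035 genes that passed filterByExpr, and scaled by TMM (factors 0.941 to 1.04). One edgeR 4.0.16 quasi-likelihood model with a mean per group (3 residual degrees of freedom, R 4.3.3) gave all 3 comparisons, with Benjamini-Hochberg adjustment over all genes tested and calls at an adjusted p under 0.05. The code was tested on simulated data. The SE is the absolute log2 change divided by the root of F. Intervals on shares cover counting error only. Replicates of each group differed by more than sampling noise (mean chi-square per gene 19.5 to 43.3). The alternatives were DESeq2 1.42.0, limma-voom (limma 3.58.1), other scalings and filters, fewer libraries and a replicate block. Replicate numbers are those of the sample titles; the column names of the deposited table use 2 and 3 for either vesicle group but 1 and 2 for vehicle, so the sources number the vesicle and vehicle libraries differently. All 10 panel genes are named; of the neighbouring lists, any kinase, INK4, pocket protein or E2F gene could be named, and of other lists up to 4 called genes with the largest changes at a mean of 5 CPM or more. The panel, the lists and the motifs were chosen with earlier results of these data, or the sequences, known.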

Additional observations from a re-analysis of the deposited data

How the results depend on the processing

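Across 14 alternative settings for each of 30 log2 changes (10 genes, 3 comparisons), every sign change fell on a value that was not called. Left-out libraries gave 4 to 6, 2 to 5 and 2 to 5 called panel genes in TEV against vehicle, in the reserpine comparison and in the comparison of both agents with vehicle, and 5381 to 7430, 2124 to 4315 and 3572 to 5950 called genes of all tested. For the share of Ccnd1 in D-type cyclin reads, leaving out 1 of 2 libraries only returns the share of the other, so it checks nothing further. These shares were 58.2% and 59.0% with TEV plus reserpine, 59.5% and 65.9% with TEV, and 37.3% and 37.6% with vehicle. The replicate block left 3 of 5 calls in TEV plus reserpine against TEV, losing Ccne2 (edgeR adjusted p = 0.0561) and Cdkn1c (0.0520). It kept all 6 panel calls in TEV against vehicle and all 4 in TEV plus reserpine against vehicle. All genes called with it were 6864 in TEV against vehicle, 3840 in the reserpine comparison and 5094 in TEV plus reserpine against vehicle. Deviations of same-numbered libraries were uncorrelated (0.01, -0.04 and 0.02 for TEV and vehicle, both vesicle groups, and TEV plus reserpine and vehicle), so the title numbers were not taken to pair the libraries. By the deposited column names, which pair the vesicle groups alike, vehicle shares only 1 number with either, and no other block was fitted. In TEV against vehicle, Ccnd3 changed sign with scaling by library size alone (-0.11), with only the groups compared (-0.0096) and without vehicle replicate 2 (-0.030), where left-out libraries gave -0.030 to 0.064. Ccnd1 did so without TEV replicate 2 (range -0.15 to 0.61), and Cdkn1a (-0.29 to 0.021) and Cdkn1c (-0.010 to 1.16) without vehicle replicate 2. In TEV plus reserpine against TEV, Cdkn1a did so with no filter (-0.0098), over genes above 1 CPM in 2 libraries (-0.0013), without TEV replicate 2 and without replicate 2 of TEV plus reserpine (range -0.096 to 0.12). Cdkn2a (-0.052 to 0.31) and Cdkn2b (-0.035 to 0.12) did so without replicate 1 of TEV plus reserpine, and Cdkn2b without TEV replicate 1. In TEV plus reserpine against vehicle, Cdkn1a did so without vehicle replicate 2 (-0.29 to 0.025) and Cdkn1b without replicate 1 of TEV plus reserpine (-0.030 to 0.0076). The causes were not tested. With 2 libraries a group and 3 residual degrees of freedom, changes within the intervals given could not be told from none, most of all for Cdkn1c with as few as 5.86 estimated counts.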
